A study of Homo sapiens with 6 samples.

Results

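The E2F family and its DP partners were examined in MDA-MB-231 cells, an established line of human triple-negative breast cancer, after exposure to BRL-50481, an inhibitor of the cyclic AMP phosphodiesterase PDE7A. The members were chosen by name: E2F1 to E2F8, TFDP1 and TFDP2. All 10 were found among the 15651 genes of the table, and all 10 passed the filter on low values that left 15246 genes for testing. The 6 libraries came from 3 cultures given the solvent DMSO and 3 given BRL-50481. Cells of the drug arm were treated at 50 µM for 72 hours by both the protocol and the publication, whereas the treatment tag of the same samples gives 5 µM for 48 hours. No genetic change was introduced into either group.

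E2F proteins are transcription factors that bind short GC-rich sites in promoters of genes for DNA replication and cell division. E2F1, E2F2 and E2F3 activate these genes and are held in check by the retinoblastoma protein until cyclin-dependent kinases phosphorylate it late in G1. E2F4 and E2F5 act mainly as repressors with the pocket proteins RBL1 and RBL2, E2F6 represses through Polycomb complexes without a pocket protein, and E2F7 and E2F8 are atypical repressors that bind DNA without a DP partner. The other E2F proteins bind DNA as heterodimers with TFDP1 or TFDP2. Several E2F genes carry E2F sites in their own promoters, and E2F7 and E2F8 are known repressors of E2F1.

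Promoter sequences of 3 activators and of E2F7 are shown because the activators E2F1 and E2F2 and the repressor E2F7 moved in opposite directions, with E2F3 as the activator that did not pass the test. Each sequence is the 120 bases before the annotated start, 5′ to 3′ on the strand of the gene, from RefSeq on GRCh38.p14, and capitals mark an E2F site as defined below.
E2F1, chr20:33686386-33686505, minus strand: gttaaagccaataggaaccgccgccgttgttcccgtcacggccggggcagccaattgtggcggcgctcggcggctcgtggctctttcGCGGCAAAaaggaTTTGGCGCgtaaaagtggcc
E2F2, chr1:23531234-23531353, minus strand: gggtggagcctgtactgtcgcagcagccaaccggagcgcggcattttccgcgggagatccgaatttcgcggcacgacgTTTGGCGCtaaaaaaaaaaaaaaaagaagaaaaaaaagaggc
E2F3, chr6:20401759-20401878, plus strand: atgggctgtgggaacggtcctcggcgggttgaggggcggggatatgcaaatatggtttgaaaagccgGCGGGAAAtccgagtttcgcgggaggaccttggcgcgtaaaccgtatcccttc
E2F7, chr12:77065570-77065689, minus strand: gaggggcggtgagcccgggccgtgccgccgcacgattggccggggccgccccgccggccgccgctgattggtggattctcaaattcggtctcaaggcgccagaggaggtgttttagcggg

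A site was counted where 1 of 4 forms of the motif, TTTCCCGC, TTTGGCGC, TTTCGCGC or TTTGCCGC, stood on either strand between 250 bases before and 50 bases after the start. The table of promoters held windows for 8 members, not for E2F5 and E2F8. A site was present in 4 of these 8, namely E2F1, E2F2, E2F3 and TFDP1, or 50.0%, and in 6.35% of the 10958 tested genes with a window. The E2F1 promoter held 2 sites, TTTGCCGC on the opposite strand from base −33 and TTTGGCGC on the gene's strand from base −20. E2F2 had TTTGGCGC from base −42, and the upstream of the 2 E2F3 starts had TTTCCCGC on the opposite strand from base −53. The windows of E2F4, E2F6, E2F7 and TFDP2 held none of these letters. The motif thus occurred both in members that fell (E2F1, E2F2, TFDP1) and in one that did not pass the test (E2F3). Of the members whose windows lacked it, E2F4, E2F6 and TFDP2 also fell and E2F7 rose. A match is a run of letters, not a measured binding site.

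After BRL-50481, E2F1 and E2F2 fell to 0.450 and 0.457 of their DMSO level, E2F4 fell to 0.608, and E2F6, E2F8, TFDP1 and TFDP2 fell by smaller amounts. E2F7 alone among the 10 members rose, to 1.67 times its DMSO level. E2F3 and E2F5 did not pass the test. In all, 7 members were lower, 1 was higher and 2 were not called at an adjusted p below 0.05 (limma on log2 of the normalized count plus 1, Benjamini-Hochberg over all 15246 genes). The same rule called 58.7% of all genes tested, 29.8% lower and 28.9% higher, so a change in either direction was common in these libraries. The median log2 fold change was −0.31 over the 10 members and 0.01 over all genes tested.

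The values of each member did not overlap between the groups, which was also the case for 64.2% of all genes tested. The exact two-sided permutation test over the 6 libraries gave p = 0.1 for every member, the smallest value that 3 against 3 libraries allow. The calls therefore rest on the limma fit, which pools the spread over all genes. RNA was taken from whole cultures, so fewer cells in a given cycle phase and less RNA per cell cannot be told apart.

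**Figure D1:**
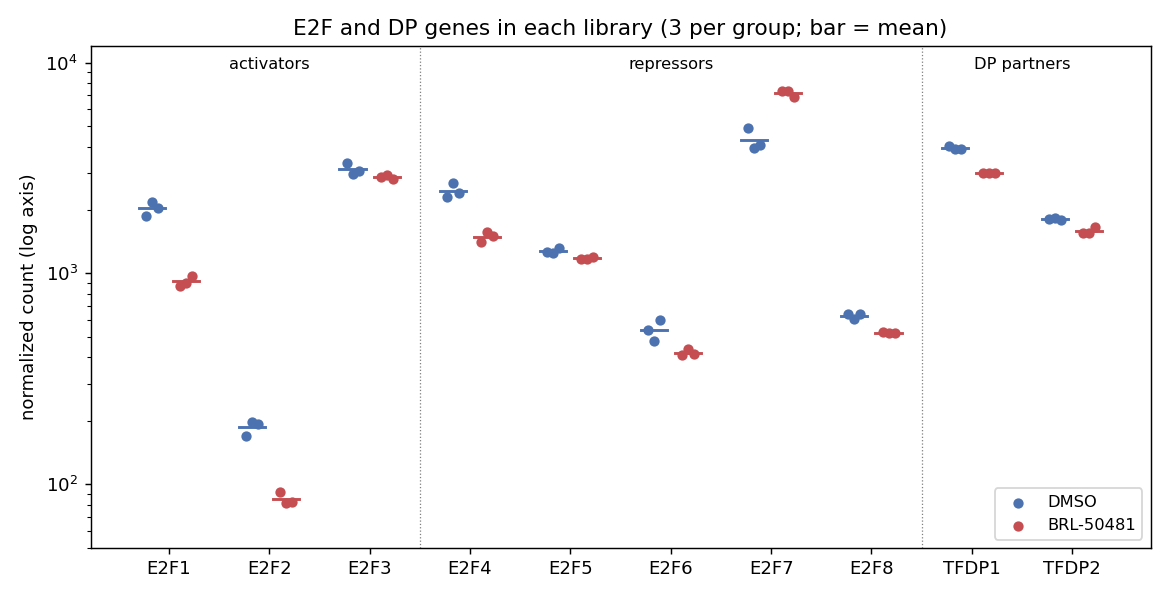
Normalized counts (log axis) of the 10 members, with 1 point per library, blue for DMSO and red for BRL-50481, and a bar at the mean of each group of 3. E2F7 is the member whose red points lie above the blue ones, and the gap between groups is widest for E2F1 and E2F2.

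Among the activators, E2F1 (hg38 chr20:33675477-33686385, minus strand), a driver of entry into S phase, had normalized counts of 1872, 2181 and 2052 in the DMSO libraries and of 875, 904 and 969 with BRL-50481. The lowest DMSO library was above the highest treated library by a margin larger than the spread within either group. The drop in the mean was from 2035 ± 155 to 916 ± 48.4 (SD over 3 libraries, here and for every mean that follows), or −1.15 as a log2 fold change (SE 0.07, limma adjusted p = 3.4e-08).

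E2F2 (chr1:23506438-23531233, minus strand), which overlaps with E2F1 in the genes it activates, was the least abundant member and had 170, 197 and 193 normalized counts with DMSO and 91.6, 81.6 and 82.4 with BRL-50481. The values came from 81 to 201 reads per library, which made its standard error the largest of the family. Its mean fell from 187 ± 14.7 to 85.2 ± 5.57, a log2 fold change of −1.12 (SE 0.13, limma adjusted p = 7.9e-06). The log2 fold changes of E2F1 and E2F2 lay at the 2.35 and 2.51 percentile of all genes tested. Both were below −1, a size reached by 2.98% of all genes among those called lower.

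E2F3 (chr6:20401879-20493714, plus strand), whose 2 annotated starts give different protein isoforms that were summed in the gene count, had 3336, 2952 and 3053 normalized counts with DMSO and 2877, 2943 and 2796 with BRL-50481. The lowest DMSO library and the highest treated library were nearly equal. The means were 3114 ± 199 and 2872 ± 73.6, and the log2 fold change of −0.11 had a 95% interval from −0.24 to 0.01 (limma adjusted p = 0.10). A correction for gene length and GC content brought E2F3 past the threshold, with −0.24, as did leaving out DMSO replicate 2, with −0.15.

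Within a library, the log2 ratio of E2F1 to E2F3 changed from −0.61 ± 0.20 with DMSO to −1.65 ± 0.11 with BRL-50481. The change of −1.03 showed no overlap between the groups (exact permutation p = 0.1, adjusted over 6 pairs 0.12). The ratio of E2F1 to E2F2 was 3.44 ± 0.03 with DMSO and 3.41 ± 0.15 with BRL-50481, and its values overlapped (exact permutation p = 0.8). E2F1 and E2F2 thus fell by amounts that could not be separated in 3 against 3 libraries, while E2F3 kept a larger part of its level than E2F1 in every treated library.

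**Figure D2:**
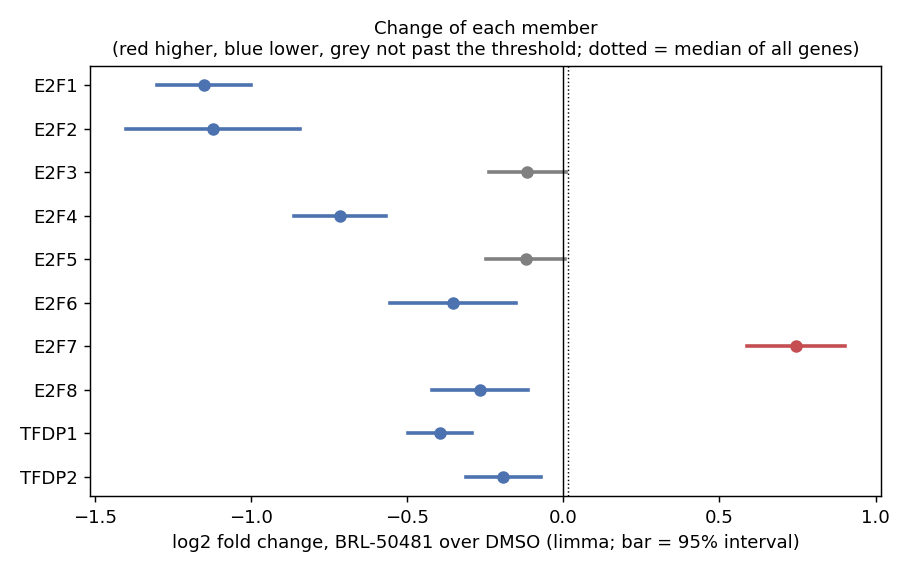
Log2 fold change of each member (BRL-50481 over DMSO, limma) with its 95% interval, blue for lower, red for higher and grey for not past the threshold, with a dotted line at the median of all genes tested. E2F1 at −1.15 and E2F2 at −1.12 lie farthest to the left, and E2F7 at 0.74 lies on the other side of 0.

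Among the repressors, E2F4 (chr16:67192155-67198918, plus strand), which with RBL2 or RBL1 occupies E2F promoters in resting cells, had 2297, 2676 and 2406 normalized counts with DMSO and 1405, 1578 and 1503 with BRL-50481. Every treated library was below every DMSO library. E2F4 fell from a mean of 2460 ± 195 to 1496 ± 86.8, a log2 fold change of −0.72 (SE 0.07, limma adjusted p = 1.5e-06).

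E2F5, the closest relative of E2F4, had 1262, 1251 and 1327 normalized counts with DMSO and 1171, 1168 and 1192 with BRL-50481. The groups did not overlap, but the distance between them was of the order of the spread among the DMSO libraries. The means were 1280 ± 41.0 and 1177 ± 13.1, and the log2 fold change of −0.12 had a 95% interval from −0.25 to 0.01 (limma adjusted p = 0.094). E2F5 passed the threshold without DMSO replicate 1, at −0.13, and after the correction for gene length and GC content, at −0.11. The log2 ratio of E2F4 to E2F5 changed from 0.94 ± 0.14 to 0.34 ± 0.09 with no overlap (exact permutation p = 0.1, adjusted 0.12).

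E2F6 (chr2:11444375-11466177, minus strand), the Polycomb-linked repressor, had 541, 476 and 603 normalized counts with DMSO and 409, 439 and 414 with BRL-50481. Its DMSO libraries differed among themselves more than those of most members, with a coefficient of variation of 11.7% against 3.87% in the treated libraries. Its mean fell from 540 ± 63.3 to 421 ± 16.3, a log2 fold change of −0.35 (SE 0.09, limma adjusted p = 0.0055).

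E2F7 (chr12:77021248-77065569, minus strand), an atypical repressor with 2 DNA-binding domains per protein, had 4908, 3929 and 4069 normalized counts with DMSO and 7318, 7339 and 6877 with BRL-50481. DMSO replicate 1 stood above the other DMSO libraries and was still below every treated library. The mean rose from 4302 ± 529 to 7178 ± 261, a log2 fold change of 0.74 (SE 0.07, limma adjusted p = 1.9e-06), at the 89.2 percentile of all genes tested. Without DMSO replicate 1, the library farthest from its replicates over all genes, the log2 fold change was 0.84.

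E2F8 (chr11:19224063-19241620, minus strand), the other atypical repressor, moved the other way, with 643, 606 and 638 normalized counts with DMSO and 527, 520 and 523 with BRL-50481. The treated libraries lay close together, with a coefficient of variation of 0.647%. On average E2F8 fell from 629 ± 19.95 to 523 ± 3.39, a log2 fold change of −0.27 (SE 0.07, limma adjusted p = 0.0060). The log2 ratio of E2F7 to E2F8 was 2.76 ± 0.14 with DMSO and 3.77 ± 0.05 with BRL-50481, with no overlap between the groups (exact permutation p = 0.1, adjusted 0.12). The pair of atypical repressors, which can form dimers with each other, therefore did not change as a unit.

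Set by role, 2 of the 3 activators fell and none rose, with a median log2 fold change of −1.12. Of the 5 repressors, 3 fell, 1 rose and 1 was not called, with a median of −0.27. Over all genes tested, 29.8% were called lower and 28.9% higher. The ranges of the 2 groups of genes overlapped, since the activator E2F3 at −0.11 lay above the repressors E2F4, E2F5, E2F6 and E2F8. The role of a member and its direction were thus not in a one-to-one relation. The widest difference was between E2F1 and its repressor E2F7, since these had the lowest and the highest log2 fold change of the members. Their log2 ratio changed from −1.08 ± 0.28 to −2.97 ± 0.13 (difference −1.89, no overlap, exact permutation p = 0.1, adjusted 0.12). This ratio restates the changes of E2F1 and E2F7 and is no separate evidence on activators against repressors.

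Of the DP partners, TFDP1 (chr13:113584721-113641473, plus strand), the first DP protein described, had 4004, 3898 and 3885 normalized counts with DMSO and 2985, 2991 and 2994 with BRL-50481. The groups were far apart relative to their spread, which was 1.66% of the mean with DMSO and 0.155% with BRL-50481. TFDP1 fell from a mean of 3929 ± 65.2 to 2990 ± 4.65, a log2 fold change of −0.39 (SE 0.05, limma adjusted p = 1.1e-05).

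TFDP2 (chr3:141944428-142149544, minus strand), its paralog, had 1804, 1836 and 1797 normalized counts with DMSO and 1555, 1555 and 1652 with BRL-50481. BRL-50481 replicate 3 was nearest to the DMSO libraries. The mean fell from 1812 ± 20.8 to 1587 ± 55.6, a log2 fold change of −0.19 (SE 0.06, limma adjusted p = 0.0091), which was −0.42 after the correction for gene length and GC content. The log2 ratio of TFDP1 to TFDP2 changed from 1.12 ± 0.03 to 0.91 ± 0.05 with no overlap (exact permutation p = 0.1, adjusted 0.12). This difference of −0.20 depended on the scale, being −0.0011 after the same correction.

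To compare members with each other, normalized counts were divided by the length of the canonical transcript. On this scale TFDP1 was the most abundant member in DMSO cells, at 1489 per kilobase, followed by E2F4 at 1166, E2F1 at 757 and E2F7 at 751. E2F5 at 652 and E2F3 at 618 came next, and TFDP2, E2F8, E2F6 and E2F2 were at 183, 170, 167 and 35.9. The library ranges of neighbours overlapped for E2F1 and E2F7, for E2F5 and E2F3, and for E2F8 and E2F6, so the order within these pairs is not resolved.

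With BRL-50481, E2F7 headed the order at 1254 per kilobase, above TFDP1 at 1133, E2F4 at 709, E2F5 at 599, E2F3 at 570 and E2F1 at 341. TFDP2, E2F8, E2F6 and E2F2 followed at 161, 141, 130 and 16.4, and no neighbours overlapped. By mean level, E2F1 thus went from rank 3 to rank 6 and E2F7 from rank 4 to rank 1. The order of E2F1 and E2F7 in DMSO cells was not resolved. With the longest annotated transcript in place of the canonical one, E2F7 had rank 1 and E2F1 rank 5 in treated cells. E2F4 and E2F3 overlapped in treated cells on that scale. E2F5, whose canonical and longest transcripts have 1964 and 5042 bases, then had rank 6 in both groups.

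The summed level of the 8 E2F genes per kilobase was 4316 ± 23.3 with DMSO and 3761 ± 66.1 with BRL-50481. The activators accounted for most of this difference, with 1411 ± 22.4 and 927 ± 11.5, whereas the repressors together were at 2906 ± 22.1 and 2833 ± 59.4, or 2272 ± 39.2 and 2322 ± 56.9 with the longest transcripts. E2F7 made up 17.4 ± 2.12% of the sum with DMSO and 33.3 ± 1.0% with BRL-50481. E2F1 went from 17.5 ± 1.32% to 9.05 ± 0.54% and E2F4 from 27.0 ± 2.03% to 18.8 ± 0.83%. Within the repressors, a higher E2F7 thus stood against a lower E2F4. The ratio of activators to repressors was 0.486 ± 0.010 and 0.327 ± 0.006, and 0.621 and 0.399 with the longest transcripts.

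**Figure D3:**
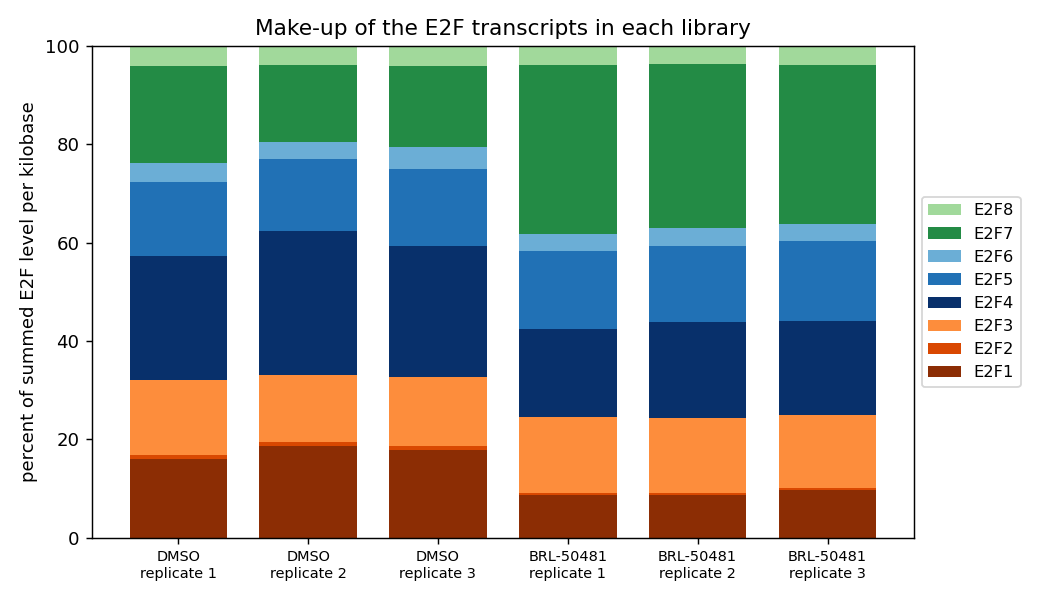
Share of each E2F gene in the summed E2F level per kilobase of canonical transcript (percent), with 1 bar per library. The E2F7 share is wider in all 3 BRL-50481 libraries (mean 33.3%) than in the DMSO libraries (mean 17.4%), and the shares of E2F1 and E2F4 are narrower.

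The pocket proteins that bind the E2F proteins were higher or not called. RBL2, the partner of E2F4 and E2F5 in quiescent cells, rose from 971 ± 106 to 1749 ± 71.9 normalized counts (log2 fold change 0.85, limma adjusted p = 1.0e-06). RB1, which holds the activators inactive, rose from 2455 ± 223 to 3132 ± 74.4 (0.35, adjusted p = 4.0e-04 by limma). RBL1 was at 1489 ± 165 and 1563 ± 82.5, with overlapping values (0.07, limma adjusted p = 0.43). The median change of the pocket proteins was 0.35 on the log2 scale and 0.23 after the length and GC correction. The DP gene TFDP3 was not analysed here.

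The G1 cyclins, kinases and kinase inhibitors that act upstream of the retinoblastoma protein were mostly lower, with 11 of 15 lower, 2 higher and 2 not called. Their median change was −0.53 on the log2 scale. For comparison, 29.8% of all genes tested were called lower and 28.9% higher. CCND1, the cyclin D that opens the pathway, fell from 33917 ± 861 to 20636 ± 189 (−0.72), and its kinase CDK4 fell by 0.53 on the log2 scale. CCNE2, a cyclin E and itself an E2F target, had the largest fall of the list, from 1090 ± 53.4 to 294 ± 57.0 (−1.90, limma adjusted p = 4.7e-08). CCNA2, a cyclin of S phase and G2, had the largest rise (0.85). The inhibitor CDKN1A (p21) fell from 9516 ± 442 to 7181 ± 146 (−0.41). CDKN2A and CDKN2B were not analysed here.

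Of 62 genes listed as E2F targets of the G1/S transition, 41 were lower, 9 higher and 12 not called, and the median change was −0.44 on the log2 scale. Among all genes tested, 29.8% were called lower and 28.9% higher. The target list holds the MCM helicase, replication factors and nucleotide synthesis. Its genes shared with the list upstream of the retinoblastoma protein, CCNE2 among them, were all lower and counted in both lists. MCM7, a helicase subunit, fell from 7619 ± 531 to 4262 ± 49.6 (−0.84), and DNMT1, the maintenance DNA methyltransferase, fell from 9378 ± 385 to 6526 ± 73.8 (−0.52). RRM1, a ribonucleotide reductase subunit, was at 5779 ± 109 and 5973 ± 98.9 with overlapping values (0.05, limma adjusted p = 0.38). TIMELESS, a replication fork protein, had the largest rise (0.58). The targets did not share one direction, then, although most of them fell.

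Promoter windows were held for 52 of these 62 targets, and the E2F motif stood in 28 of them (53.8%). With the motif, 20 were lower and 2 higher, and the median change was −0.50 on the log2 scale. Without it, 13 of 24 were lower and 6 higher, with a median of −0.21. Over all tested genes with a promoter window, the motif occurred in 7.44% of those called lower, 5.76% of those called higher and 5.92% of those not called.

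Genes of G2 and mitosis moved in the other direction, with 29 of 30 higher, none lower, 1 not called and a median change of 0.82 on the log2 scale. After the length and GC correction this median was 0.67. Of all genes tested, 28.9% were called higher and 29.8% lower. CCNB1, the mitotic cyclin, rose from 2334 ± 69.7 to 7315 ± 148 (1.65, limma adjusted p = 1.3e-10), and TOP2A, the topoisomerase of mitotic chromosomes, rose from 10852 ± 896 to 22118 ± 468 (1.03). The mitotic proteins CENPF and TPX2 rose by 0.84 and 0.60 on the log2 scale. The part that the mix of cell cycle phases had in the E2F levels was not tested.

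The MuvB core represses with E2F4 and a pocket protein as the DREAM complex and activates later in the cycle with MYBL2 and FOXM1. Of these 7 genes, 5 were lower, 1 higher and 1 not called, with a median of −0.23. Lower calls made up 29.8% of all genes tested and higher calls 28.9%. FOXM1, an activator of G2/M genes, rose from 2441 ± 1.69 to 3830 ± 175 (0.65), while MYBL2, an E2F target that joins MuvB in S phase, fell by 0.14 with a limma adjusted p of 0.044. LIN52, a MuvB subunit, fell by 0.90 and RBBP4, a histone chaperone shared with other complexes, by 0.49. The median was −0.40 after the length and GC correction and −0.33 without DMSO replicate 2. The number of lower genes was 3 under quantile normalization, median centring or no trend, and 3 without DMSO replicate 3 or without any 1 of the BRL-50481 libraries.

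The complex through which E2F6 represses, PRC1.6, had 6 of 10 genes lower and 4 not called, with a median of −0.19 that was −0.32 after the length and GC correction. With that correction, as with quantile normalization or median centring, 1 gene of the complex was called higher. The main fit called 29.8% of all genes tested lower and 28.9% higher. MAX, a DNA-binding subunit of the complex shared with MYC, fell by 0.49, the scaffold WDR5 by 0.48 and RYBP by 0.21 on the log2 scale. CBX3, a heterochromatin protein, was at 7214 ± 98.7 and 6948 ± 261 with overlapping values (−0.05).

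Subunits of ubiquitin ligases that act on E2F proteins did not move together. CCNF, which targets E2F proteins late in the cycle, rose from 408 ± 20.3 to 857 ± 42.2 (1.07, limma adjusted p = 1.2e-07). The APC/C activators FZR1 and CDC20 rose by 0.36 and 0.19, and SKP2 fell from 612 ± 61.7 to 490 ± 1.66 (−0.32). These values are transcript levels, and E2F protein was not analysed here.

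**Figure D4:**
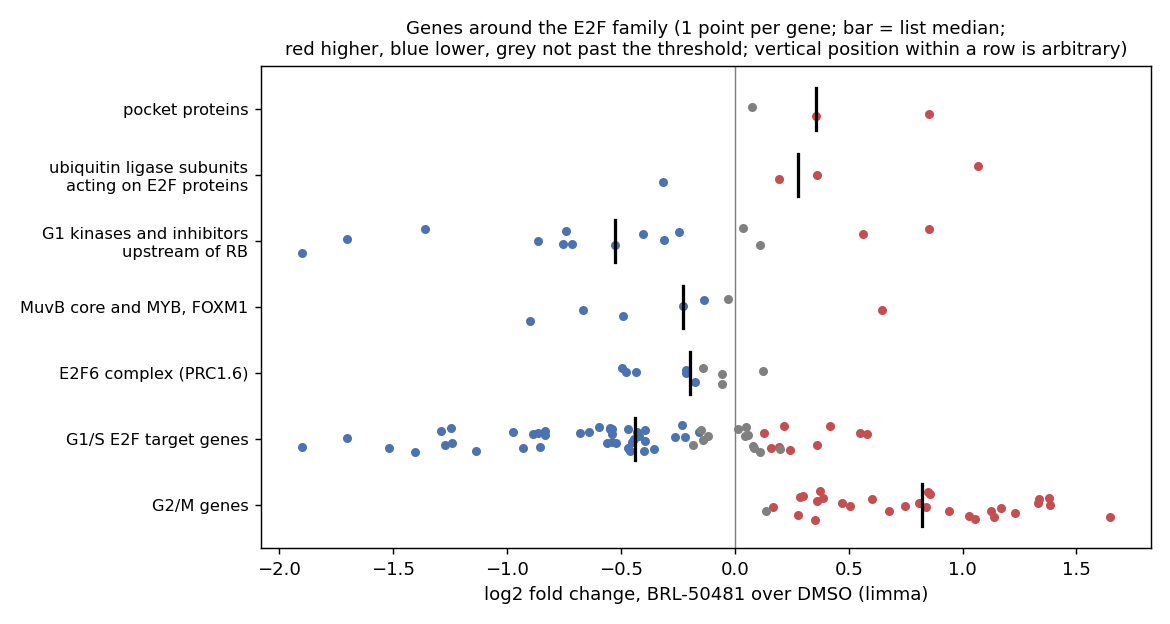
Log2 fold change (BRL-50481 over DMSO, limma) of the genes around the E2F family, with 1 point per gene, red for higher, blue for lower and grey for not past the threshold, and a bar at the median of each list. The G1/S target genes lie mostly to the left of 0 (median −0.44) and the G2/M genes to the right (median 0.82).

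Over the series, 30750573 to 33446984 reads per library fell on genes. DMSO replicate 1 was farthest from its group, with a median absolute log2 difference of 0.153 from the mean of the other DMSO libraries. This difference was 0.127 for DMSO replicate 2, 0.0834 for DMSO replicate 3 and 0.0659 to 0.0763 in the treated group. Without DMSO replicate 1, 8 members were lower and 1 higher, E2F5 being added. Over all genes tested, 4933 were then lower and 4876 higher, against 4546 and 4400 in the main fit. The markers of the line VIM, CD44, ANXA1 and CAV1 were abundant, with 7965 to 58840 normalized counts in DMSO cells, SPARC was low at 14.0, and all 5 rose. Of the receptors and epithelial genes listed as absent or low in the line, PGR was at 1.67 in DMSO cells, and CDH1 was at 38.2 and rose to 99.8. EPCAM, which fell from 764 to 682, and ERBB2, which rose from 1677 to 1914, were not low here. PTPRC, COL3A1, ALB and ESR1 were not analysed here. Of the markers of other cell types, the fibroblast gene COL1A1 was at 337 and 338 and the endothelial PECAM1 rose from 358 to 498, and the part of the latter in the results was not tested.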

How the data were processed

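RNA sequencing libraries of MDA-MB-231 cells were made from poly(A) RNA with strand marking per the labels, although the design text names ribosomal depletion. Per the submitters' processing notes and the methods, the authors aligned reads to hg38 with STAR 2.7.1a, counted them per gene with HTSeq in reverse-strand mode on UCSC annotation and normalized with DESeq2 1.28. The deposited signal is the normalized count, the reads of a gene divided by the size factor of the library. Every value was a whole number of reads within 1e-06, and 1 read was worth 0.969 to 1.02. The deposited fold changes and p-values were not used.

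The members and gene lists were chosen with earlier results of these data known. Samples were grouped by their labels. Genes with at least 4 normalized counts in at least 3 libraries were tested (405 were not) with limma 3.58.1 (R 4.3.3, lmFit and eBayes with trend, two-sided) on log2(normalized count + 1), called at a Benjamini-Hochberg adjusted p below 0.05. Fold changes on this scale understate low genes. Ratios of 2 members were tested by exact permutation (scipy 1.17.1). From each list, the text names the largest called change in each direction and the 3 genes of highest mean, and every gene of lists of up to 6. One gene that this rule names is not reported here. The design text calls the 3 libraries of a group biological replicates, and p-values cover the spread between them. Lengths and positions came from GENCODE 44, promoters from RefSeq. Alternatives were edgeR 4.0.16 and DESeq2 1.42.0 on recovered reads, other pseudocounts (0.5, 4), filters (none, a mean of 20), scalings, no trend, a replicate block, a length and GC correction, and each library left out. The fit was checked on simulated data. The main fit did not pair libraries by their shared replicate number.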

Additional observations from a re-analysis of the deposited data

How the results depend on the processing

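E2F1, E2F2, E2F4, E2F6, E2F7, E2F8, TFDP1 and TFDP2 kept their direction and call in 11 of 11 alternatives and 6 of 6 fits without a library. E2F3 and E2F5 were past the threshold after the length and GC correction, at −0.24 (limma adjusted p = 2.5e-05) and −0.11 (adjusted p = 0.046 by limma), and the cause was not tested. With a library left out, E2F3 ranged from −0.152 to −0.0640 and E2F5 from −0.137 to −0.0941. E2F3 was called without DMSO replicate 2 and E2F5 without DMSO replicate 1. The E2F7 log2 fold change ranged from 0.59 to 0.79 over the alternatives. The log2 ratio of E2F1 to E2F2, not past the threshold, ranged from −0.09 to 0.10. With the replicate block, 4440 genes were higher and 4589 lower, against 4400 and 4546 without it, and no call of a member changed. The replicate numbers gave correlations of 0.121, 0.104 and 0.0514 between same-numbered libraries. Each DMSO library correlated best with the treated library of its own number, a hint from the data and not from the design. Depth limits E2F2 most, with 81 reads in its lowest library, and 3 libraries per group limit every permutation test.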

Other observations

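Cofactors and death genes linked to E2F proteins moved in both directions. So did all genes tested, 28.9% of which were called higher and 29.8% lower. Of 13 coactivators and corepressors, 5 were higher, 5 lower and 3 not called, with a median log2 fold change of 0.09 that was −0.02 after the length and GC correction and 0.06 without DMSO replicate 1. KAT2B, an acetyltransferase that modifies E2F1, rose from 824 ± 74.7 to 1158 ± 75.2 normalized counts (SD, n = 3 each, log2 fold change 0.49, limma adjusted p = 1.4e-04). The deacetylases HDAC1 and HDAC2, which pocket proteins bring to E2F promoters, fell by 0.40 and 0.39 on the log2 scale. TRRAP, a scaffold of acetyltransferase complexes, was at 3365 ± 590 and 3830 ± 142 with overlapping values (0.20, limma adjusted p = 0.082).

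Of 10 tested genes that link E2F1 to apoptosis, 4 were lower, 2 higher and 4 not called, with a median of −0.18. The median was −0.10 without DMSO replicate 1 and −0.28 after the length and GC correction. By comparison, 29.8% of all genes tested were called lower and 28.9% higher. PMAIP1 (NOXA) fell from 11375 ± 205 to 7959 ± 200 (−0.52) and BCL2L11 (BIM) from 1902 ± 102 to 1210 ± 36.1 (−0.65), both being BH3-only death proteins. CASP8, an initiator caspase, rose from 1163 ± 60.4 to 1493 ± 60.5 (0.36). HRK did not pass the filter on low values. The number of higher genes was 1 under quantile normalization, a pseudocount of 4, no filter or DESeq2, and 1 without DMSO replicate 3, BRL-50481 replicate 2 or BRL-50481 replicate 3.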
